A study of Rattus norvegicus with 9 samples.

Results

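Collagen genes, together with fibronectin and a pair of enzymes that modify collagen, were examined in thoracic aorta by setting the offspring of diabetic rats against those of control rats. The group was defined by name as Col1a1, Col1a2, Col3a1, Col4a1, Col5a1, Col5a2, Col18a1, Fn1, P4ha1 and Plod2. Of these 10 genes, 7 had at least 1 feature annotated to that gene alone, with 11 probes in all, among 22575 features on the array and 19478 entries after probes of the same gene were averaged. Col1a1, Col4a1 and P4ha1 had no such probe and are not analysed here, so no subunit of the collagen IV network is among the measured members. Col1a2, Col3a1 and Fn1 were read by 1 probe each, and Col5a1, Col5a2, Col18a1 and Plod2 by 2.

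Every array carried total RNA of a rat born to a diabetic mother in one dye and of a rat born to a control mother in the other, both from thoracic aorta. Strain, sex, age, litter and the way diabetes was brought about in the mothers are not given in the labels, and littermates among the animals would make p-values too small. There were 9 arrays from 5 pairs of animals, named by the number of the diabetic mother's offspring: pair 193 was set against control 189, 194 against 190, 197 against 191, 199 against 192 and 220 against 216. A dye swap was made for pairs 193, 197, 199 and 220, while pair 194 was measured once, with its control on Cy5. The labels tie the 2 orientations of a pair to the same animals, so they were averaged and the animal pair was the replicate (n = 5).

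The deposited values are log ratios with no stated base, taken here as log2, and no fold change is drawn from them. Neither is the group that a positive value stands for. Values are used as deposited, as if the arrays that carry a diabetic mother's offspring on Cy5 had been turned to run the same way as the others. For the members, values with the sign of those arrays turned are also given. A log ratio carries no signal level, so neither the tissue nor the abundance of a gene could be checked, and in a piece of tissue fewer cells of a type and less RNA per cell cannot be told apart. The link from feature to gene name was itself chosen on these data. Under it, 38 genes with 2 variable probes had a median r of 0.987 between their probes over the pairs, against 0.386 for 10 such genes under the row numbers as deposited.

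The fibrillar collagens form the tension-bearing ropes of the vessel wall. Collagen I and collagen III make up most of the fibrils of the media and adventitia, and collagen V sits inside them and controls their width. Collagen XVIII is a proteoglycan of the basement membranes that surround smooth muscle cells and underlie endothelium, and the end of its chain can be released as endostatin. Fibronectin is a glycoprotein that cells assemble into fibrils through integrins, and new collagen is laid down on it. Before secretion, collagen chains are hydroxylated on proline by enzymes such as that of P4ha1, and on lysine in their end regions by Plod2, which sets the kind of crosslinks formed.

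Upstream sequences are shown for Col1a2, the member farthest from 0 in pair 193, for Col5a1 and Col5a2, which encode chains of a single collagen V molecule and differed in pair 197, and for Plod2, the only member whose window held the hypoxia response core. They are the 250 bases before the start in a table of promoters made from RefSeq (GRCr8), 5′ to 3′, with capitals for the CCAAT box (CCAAT), the GC box (GGGCGG), the TATA box (TATAAA) and the hypoxia response core (ACGTG) on either strand. For Col5a1 that start is not the first base of the annotated gene, which begins at 31606475, so its window lies within the gene. Fn1, Col3a1 and Col1a1 had no entry, so 7 of the 10 listed genes were searched.
Col1a2, chr4:33518307-33518556, plus strand: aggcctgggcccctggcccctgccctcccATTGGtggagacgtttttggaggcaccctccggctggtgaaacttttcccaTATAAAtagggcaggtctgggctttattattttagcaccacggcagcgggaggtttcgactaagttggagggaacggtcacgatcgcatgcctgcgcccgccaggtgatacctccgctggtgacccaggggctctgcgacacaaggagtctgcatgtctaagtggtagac
Col5a1, chr3:31606630-31606879, plus strand: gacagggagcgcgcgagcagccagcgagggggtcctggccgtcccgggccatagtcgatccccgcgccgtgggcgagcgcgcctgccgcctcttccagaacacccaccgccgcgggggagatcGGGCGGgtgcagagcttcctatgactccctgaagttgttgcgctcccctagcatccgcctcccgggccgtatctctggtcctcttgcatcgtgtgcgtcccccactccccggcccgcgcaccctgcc
Col5a2, chr9:55090152-55090401, minus strand: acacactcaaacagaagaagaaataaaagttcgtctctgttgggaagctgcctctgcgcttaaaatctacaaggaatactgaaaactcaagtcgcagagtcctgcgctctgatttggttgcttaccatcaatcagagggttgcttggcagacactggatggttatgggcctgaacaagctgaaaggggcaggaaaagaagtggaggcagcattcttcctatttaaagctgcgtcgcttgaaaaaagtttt
Plod2, chr8:101964068-101964317, plus strand: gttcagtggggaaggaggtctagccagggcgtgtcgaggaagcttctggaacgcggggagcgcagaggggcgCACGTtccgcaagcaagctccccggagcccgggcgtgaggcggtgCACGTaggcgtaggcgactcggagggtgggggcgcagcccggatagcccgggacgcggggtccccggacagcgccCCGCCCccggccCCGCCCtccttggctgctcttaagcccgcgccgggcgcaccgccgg
The window of Col1a2 held 1 CCAAT box on the other strand and 1 TATA box, the latter 170 to 165 bases before the start. That of Col5a1 held 1 GC box, that of Col5a2 none of the motifs, and that of Plod2 2 GC boxes and 2 hypoxia response cores. Of 33469 promoters of that length, 34.0% held the CCAAT box, 30.5% the GC box, 12.9% the TATA box and 16.6% the hypoxia response core on at least 1 strand. No motifs searched overlapped each other in these windows. A match describes the letters only.

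Fibronectin (Fn1) had the widest spread over the pairs of the 7 genes. The 2 arrays of a pair, with that on which Cy3 labelled the diabetic mother's offspring given first here and below, were at -0.41 and -0.52 in pair 193. Pair 197 had the lowest values, -1.29 and -1.28, and pair 220 followed with -0.67 and -0.76, while pair 199 gave 0.20 and 0.37. The single array of pair 194 was at 0.49. Fibronectin was thus on the negative side in 3 pairs and on the positive side in 2, and the 2 arrays of each swapped pair had the same sign and lay within 0.165 of each other. Its mean was -0.34 ± 0.73 (SD, n = 5 pairs; limma adjusted p = 0.926, 95% interval -0.90 to 0.22). Without pair 194, measured on 1 array, the mean would be -0.55, and without pair 197 -0.10. The SD over the swapped pairs was 11.7 times the root mean square of their dye parts (0.5 of the difference between the 2 arrays), and 0.529% of all entries had a larger ratio. Over all entries this ratio had a median of 1.02 and was above 1 in 50.9%, and among the members it was above 1 in 6 of 7, all but Col5a2. Turning the sign of the Cy5 arrays left Fn1 between -0.083 and 0.058 in the swapped pairs, with 0.49 in pair 194.

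**Figure D1:**
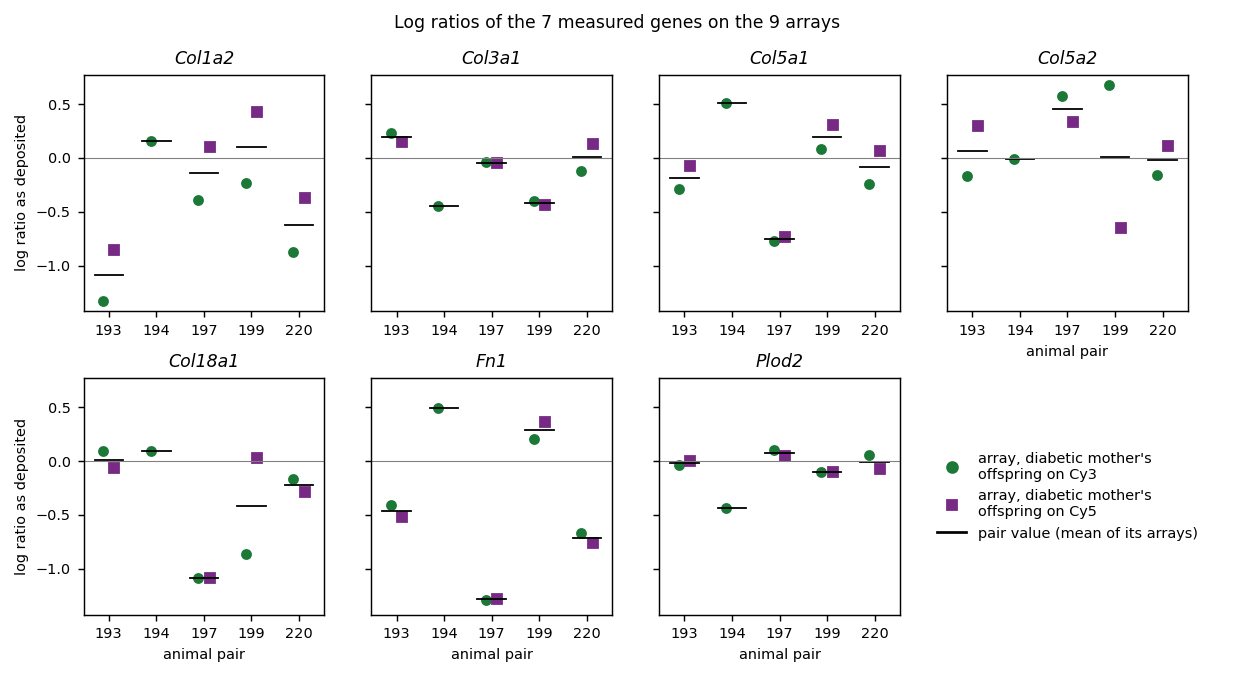
Log ratio as deposited (vertical axis) of the 7 measured genes in each animal pair (horizontal axis). Circles are arrays on which Cy3 labelled the diabetic mother's offspring, squares the swapped arrays, and the line is the pair value. The 2 arrays of a pair nearly coincide for Fn1, from -1.29 in pair 197 to 0.49 in pair 194, while the squares of Col1a2 lie above its circles in all 4 swapped pairs.

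Among the chains of the major fibrils, Col1a2, which encodes the alpha-2 chain of collagen I, was lowest in pair 193, at -1.33 and -0.86. Pair 220 gave -0.87 and -0.37, pair 197 gave -0.39 and 0.10, pair 199 gave -0.23 and 0.43, and pair 194 gave 0.15. Only pairs 193 and 220 had the same sign on both arrays, and in pair 193 only 0.416% of all entries lay as far from 0 as its pair value of -1.09. The mean was -0.32 ± 0.53 (n = 5 pairs; limma adjusted p = 0.926, 95% interval -0.74 to 0.10), and without pair 193 it would be -0.13. The dye part of Col1a2 was -0.23 in pair 193, -0.24 in 197, -0.33 in 199 and -0.25 in 220, and 34.5% of all entries likewise had dye parts of one sign. The mean dye part was -0.26 ± 0.044 (n = 4 pairs; unadjusted p = 0.00231 and adjusted p = 0.131 in limma). It did not pass after adjustment, and 21.0% of all entries had an unadjusted p under 0.05 for their dye part. If the Cy5 arrays were not turned before deposit, this dye part would be the group difference in those pairs, and with pair 194 the mean would be -0.18 ± 0.19 (limma adjusted p = 0.347).

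Col3a1, the gene of collagen III, did not follow Col1a2. It was at 0.23 and 0.15 in pair 193, where Col1a2 was lowest. Pair 197 gave -0.04 and -0.05, pair 199 gave -0.40 and -0.43, pair 220 gave -0.12 and 0.13, and pair 194 gave -0.45. Its lowest values were thus in pairs 194 and 199, in which Col1a2 had its highest. The mean was -0.14 ± 0.28 (n = 5 pairs; limma adjusted p = 0.929, 95% interval -0.41 to 0.12). It would be -0.066 without pair 194, -0.074 without pair 199 and -0.23 without pair 193. By root mean square difference over the 9 arrays, Plod2 was number 275 in closeness to Col3a1 among 9652 named genes, and Col1a2 number 9098. Seen from Plod2, Col3a1 was number 1543, and seen from Col1a2 number 6615. Such a rank depends on how widely the values of each gene spread as well as on their pattern.

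The genes of collagen V parted in pair 197. Col5a1, the alpha-1 chain, was at -0.77 and -0.73 there, while Col5a2, the alpha-2 chain, was at 0.58 and 0.33, a difference of -1.21 between the pair values. In the other pairs Col5a1 minus Col5a2 came to -0.25 (193), 0.52 (194), 0.18 (199) and -0.067 (220). Its sign was thus not shared by the pairs. The arrays of Col5a1 were at -0.29 and -0.076 for pair 193, 0.51 for pair 194, 0.080 and 0.30 for pair 199, and -0.24 and 0.062 for pair 220. Col5a1 thus had its highest value in pair 194 and its lowest in pair 197, with a mean of -0.065 ± 0.47 (limma adjusted p = 0.979, 95% interval -0.45 to 0.32). Without pair 197 that mean would be positive, at 0.11. The probe of Col5a1 annotated to the RefSeq transcript had the same sign on both arrays in 4 of 4 swapped pairs and ranged from -0.77 to 0.61, and that annotated to a cDNA did so in 2 of 4 and ranged from -0.73 to 0.40. The probes differed most in pair 199, at 0.58 and -0.20.

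Col5a2 had pair values close to 0 in 4 pairs, namely 0.063, -0.0095, 0.011 and -0.022 in pairs 193, 194, 199 and 220. In pair 199 this was the mean of opposite arrays, at 0.67 and -0.65, and both probes showed the split, at 1.01 and -0.56 and at 0.34 and -0.74. The arrays of pair 193 were at -0.17 and 0.29, and those of pair 220 at -0.16 and 0.11, so the sign was shared only in pair 197. The mean was 0.10 ± 0.20 (n = 5 pairs; limma adjusted p = 0.939, 95% interval -0.12 to 0.32), and 0.011 without pair 197. One of its probes was positive in 5 of 5 pairs, at 0.20 ± 0.17 (limma adjusted p = 0.943 with probes tested singly), and the other in 2 of 5, at 0.0026 ± 0.26. The arrays of the former shared a sign in only 1 of 4 swapped pairs. With probes tested singly, 6.03% of all features kept one sign in all pairs.

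The probes of Col18a1, the basement membrane proteoglycan, differed from each other. That annotated to the RefSeq transcript was at -2.52 and -2.16 in pair 197, and only 0.266% of all features lay as far from 0 in that pair. Elsewhere its arrays were at -0.049 and -0.14 (pair 193), 0.063 (194), 0.070 and 0.19 (199), and -0.11 and -0.61 (220). Its low values were thus those of pair 197, with pair 220 next. The probe annotated to a cDNA had a pair value of 0.17 in pair 197, with 0.12 (193), 0.13 (194) and -0.088 (220) elsewhere. It was lowest in pair 199, at -1.81 and -0.14 on the 2 arrays, so 1 array carried that value. The mean of the 2 probes, -1.09 in pair 197 and -0.42 in pair 199, stands for neither. Over the pairs it was -0.32 ± 0.47 (n = 5 pairs; limma adjusted p = 0.926, 95% interval -0.71 to 0.060). That mean would be -0.13 without pair 197 and -0.037 without pairs 197 and 199, and it was -0.042 with the Cy5 arrays turned. Singly, the RefSeq probe was at -0.52 ± 1.04 (limma adjusted p = 0.943) and the cDNA probe at -0.13 ± 0.48 (limma adjusted p = 0.957). Which transcripts each probe reads was not examined.

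**Figure D2:**
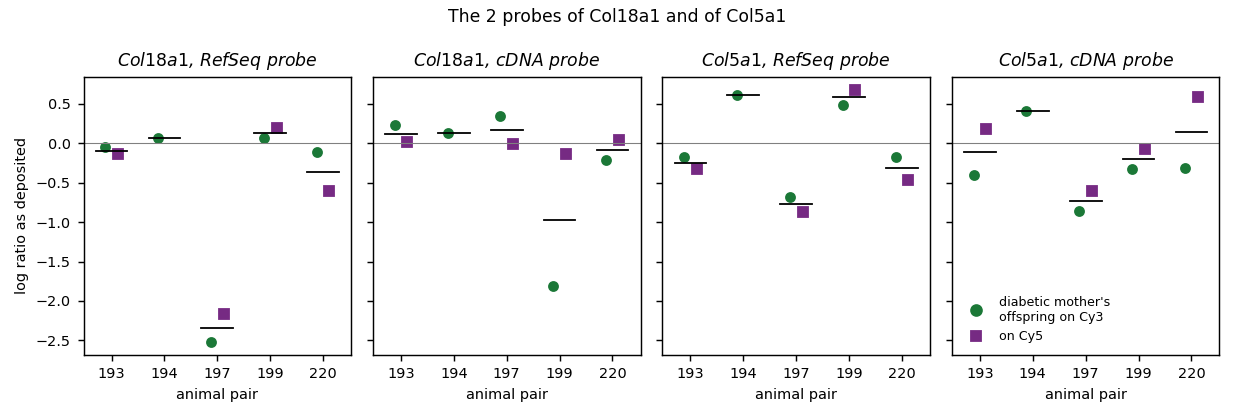
Log ratio as deposited (vertical axis) in each animal pair (horizontal axis) for the 2 probes of Col18a1 and of Col5a1, named by the kind of record the annotation gives. Circles are arrays with Cy3 on the diabetic mother's offspring, squares the swapped arrays, and lines are pair values. The RefSeq probe of Col18a1 drops to -2.34 in pair 197, where its other probe is at 0.17.

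Plod2, the lysyl hydroxylase, had a spread over the pairs that 59.9% of all entries exceeded. Its pair values were -0.018, 0.073, -0.10 and -0.0052 in pairs 193, 197, 199 and 220, and the single array of pair 194 was lower, at -0.44. Both probes had that low value in pair 194, at -0.45 and -0.43. The mean was -0.098 ± 0.20 (n = 5 pairs; limma adjusted p = 0.939, 95% interval -0.32 to 0.13), and -0.012 without pair 194. As pair 194 has no swapped array, its group difference and its dye part cannot be told apart. In the swapped pairs the dye part of Plod2 was between -0.018 and 0.064.

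No member passed an adjusted p of 0.05 in limma, and 0 of 7 passed unadjusted, where 0.0% and 4.77% of all 19478 entries did. No member had the same sign in all 5 pairs, against 6.16% of all entries. The means of 6 of 7 members were negative, against 48.7% of entries, and the median of the members' means was -0.14, against 0.0037 over all entries. Members below 0 numbered 4 of 7 in pair 193, 3 in 194, 5 in 197, 3 in 199 and 6 in 220, where 46.9%, 55.1%, 39.7%, 56.9% and 46.2% of all entries were below 0. The 7 means come from the same animals and are not separate observations of the groups. The intervals of Fn1, Col1a2 and Col18a1 reached from below -0.70 to above 0, so these data leave differences of that size undetected.

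The 2 arrays of a swapped pair had the same sign in 17 of 28 combinations of member and pair. By pair, this held for 4 of 7 members (193), 6 (197), 4 (199) and 3 (220), against 43.9%, 68.4%, 44.1% and 46.5% of all entries. In 3 of 4 swapped pairs most entries had opposite signs on the 2 arrays. Once the Cy5 arrays were turned, 4 of 7 members had negative means, and Col5a1 and Fn1 changed side, to 0.024 and 0.10. No member passed then by an adjusted p or by an unadjusted one, where 0.0% and 16.1% of entries did, and none kept one sign in 5 pairs, where 20.0% did. Of the dye parts, 0 of 7 passed an adjusted p of 0.05 (0.0% of entries), Col1a2 alone had an unadjusted p under it (21.0% of entries), and Col1a2 and Col5a1 had the same sign in all 4 swapped pairs (34.5% of entries).

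**Figure D3:**
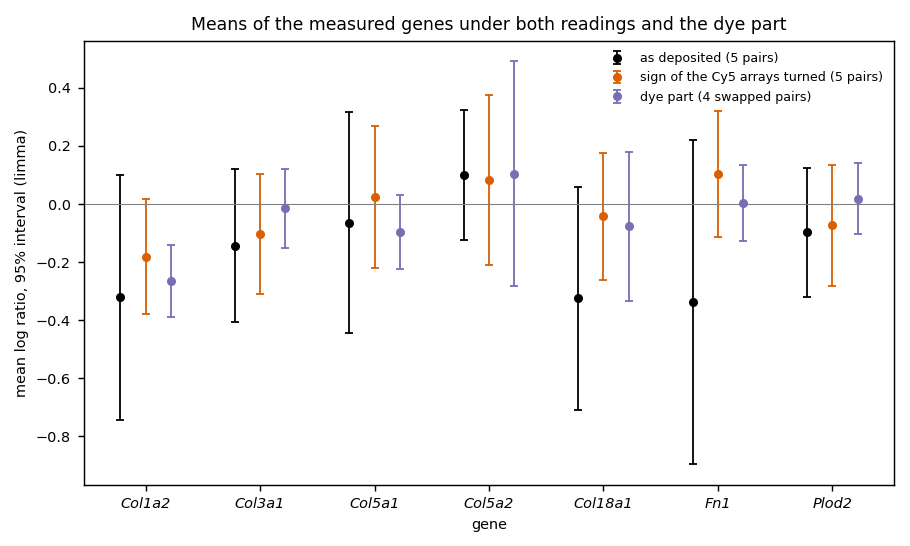
Mean log ratio of each measured gene with its 95% interval from limma (vertical axis), as deposited and with the Cy5 arrays turned in sign (n = 5 pairs), and the mean dye part (n = 4 swapped pairs). All 14 intervals of the group comparison span 0, and of the dye parts only that of Col1a2 does not, at -0.39 to -0.14.

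Other collagens were sparsely covered. Of 6 further fibrillar collagens 3 were measured, of 6 further basement membrane collagens 4, and of 22 collagens of other kinds 3, and none passed an adjusted or unadjusted p of 0.05 in limma. Their median means were -0.044, -0.040 and -0.085. Col2a1 and Col11a2, chains of cartilage-type fibrils, were at -0.14 ± 0.28 and -0.044 ± 0.22, and Col5a3, a further chain of collagen V, at 0.090 ± 0.22. Col4a3, Col4a5 and Col15a1 of the basement membrane were at -0.068 ± 0.23, 0.018 ± 0.14 and -0.068 ± 0.39. Col13a1, a transmembrane collagen, stood out in pair 197, at -1.71 and -1.50, and had a mean of -0.20 ± 0.83. Col14a1 and Col17a1 were at -0.0050 ± 0.091 and -0.085 ± 0.26 (adjusted p from 0.931 to 0.997 in limma for these 9).

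Of 29 genes that modify, fold, trim or crosslink collagen 18 were measured, 11 with a negative mean, and none passed an adjusted p of 0.05. Fkbp10, a chaperone of collagen in the endoplasmic reticulum, was at -0.38 ± 0.40, Loxl1, a crosslinking enzyme, at -0.39 ± 0.39, and Loxl4, its relative, at -0.21 ± 0.20. Adamts2, which trims the amino end of procollagens I and III, was at -0.48 ± 0.79 (all 4 with limma adjusted p = 0.926; 2 of 18 passed unadjusted, Fkbp10 and Loxl1, where 4.77% of all entries did). Adamts2 owed its mean to pair 197, at -2.23 and -1.47, and lay between -0.40 and 0.023 in the others. Of 20 targets of hypoxia-inducible factor, of which P4ha1 and Plod2 are further known examples, 18 were measured, 11 with a positive mean. The lactate dehydrogenase gene Ldha was at 0.82 ± 1.07, the aldolase gene Aldoa at 0.41 ± 0.51 and the demethylase gene Kdm3a, negative in 5 of 5 pairs, at -0.45 ± 0.22 (all with limma adjusted p = 0.926; 2 of 18 passed unadjusted, Ldha and Kdm3a, against the same 4.77%). For Kdm3a, the signs of the 2 arrays were opposite in pair 199 (-0.98, then 0.048). In every swapped pair its lower value came from the array with Cy3 on the diabetic mother's offspring. A single sign throughout was also found for 6.16% of all entries. Over pairs 193, 194, 197, 199 and 220 Ldha had values of -0.46, 1.92, 1.34, 1.49 and -0.18, beside -0.018, -0.44, 0.073, -0.10 and -0.0052 for Plod2. The targets did not share a direction: in pair 197, 14 of 18 were above 0, where 39.7% of all entries were below 0. There Pgk1 and Slc2a1, named after their values were seen, were at -0.64 and -0.63.

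Proteoglycans that bind collagen fibrils lay on both sides of 0 in pair 197. Fibromodulin (Fmod), which steers fibril growth, was at -2.17 and -2.23 on its 2 arrays, and biglycan (Bgn) at -1.54 and -1.41. Decorin (Dcn), a relative of biglycan, was at 1.48 on both. Lumican (Lum), named after its value was seen, was at 1.57 and 1.49. Over the pairs Fmod was at -0.57 ± 1.02, Bgn at -0.41 ± 0.63 and Dcn at 0.28 ± 0.78 (limma adjusted p = 0.926, 0.926 and 0.937). Of 11 measured genes of this list 7 had negative means, and 0 passed adjusted or unadjusted.

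Of 14 other basement membrane genes 5 were measured, 4 with a positive mean. Lamb2, a laminin chain, was at -1.47 and -1.51 in pair 197 and at -0.28 ± 0.77 over the pairs. Lamb3, another laminin chain, was at 0.14 ± 0.19, and perlecan (Hspg2) at 0.071 ± 0.086 (limma adjusted p from 0.926 to 0.944). Of 13 receptors of collagen and fibronectin 10 were measured, 5 on either side, and 0 passed adjusted or unadjusted in either list. Itga8, an integrin chain that binds fibronectin, was at -1.62 and -1.54 in pair 193. Its values for pair 197 were -2.19 and -2.30, with a mean of -0.66 ± 1.20. Itgb1, the chain shared by most collagen receptors, was negative in 5 of 5 pairs, at -0.16 ± 0.12, though its arrays had opposite signs in pairs 193 and 199. One sign in all pairs was kept by 6.16% of all entries. Syndecan 4 (Sdc4), a fibronectin coreceptor, was at 0.17 ± 0.20 (all 3 with limma adjusted p = 0.926). With the Cy5 arrays turned, several means named above came close to 0 or changed side: Itga8 to 0.096, Itgb1 to 0.065, Lamb2 to 0.067, Bgn to 0.034, Fmod to 0.0052, Dcn to -0.085 and Sdc4 to -0.066. That of Col5a3 became larger, at 0.41. Turning cancels what the 2 arrays of a swapped pair share, such as -2.19 and -2.30 for Itga8 in pair 197. It leaves the single array of pair 194 as it is, at 0.59 for Itga8.

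**Figure D4:**
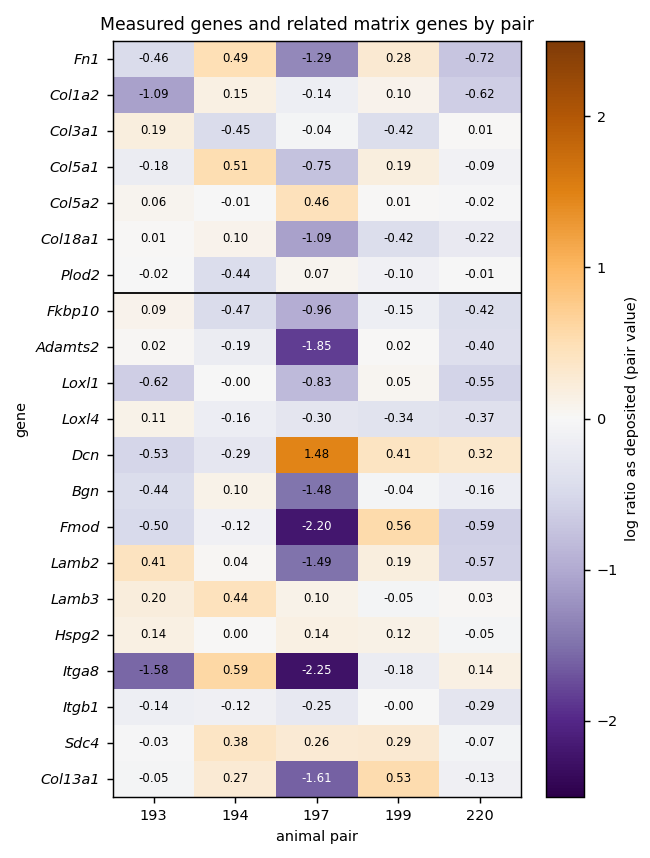
Pair values (log ratio as deposited, colour scale and printed numbers) of the 7 measured genes, above the line, and of related matrix genes, in the 5 animal pairs. In pair 197 Itga8, Fmod, Adamts2, Col13a1, Lamb2, Bgn and Fn1 lie between -2.25 and -1.29, and Dcn is at 1.48.

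Genes nearest to a member were ranked by root mean square difference over the 9 arrays, which share animals and dyes. The 5 nearest to the mean of Col1a2 and Col3a1 were Wdr45, Slc35f1, Fnip1, Arcn1 and Eif3a, at 0.147 to 0.176. As Col3a1 did not follow Col1a2, that mean stands for neither gene. A likeness to Col4a1 could not be computed without a probe. Seen from Fn1, Col5a1 was number 116 and Col18a1 number 394 of 9652 genes, while Col1a2 was number 1445 and Col3a1 number 5729. Col5a1 was thus the member nearest to Fn1, with a difference of 0.43. In the other direction Fn1 was number 1576 from Col5a1 and number 1172 from Col18a1. Col18a1 stands here as the mean of its probes, which differed from each other.

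Markers of other cell types also departed from 0 in some pairs. The lists measured were 9 of 11 fibroblast, 9 of 12 smooth muscle, 9 of 10 endothelial, 7 of 10 white adipocyte, 5 of 7 brown adipocyte, 8 of 9 leukocyte, 5 of 7 Schwann cell, 3 of 7 skeletal muscle and 2 of 6 chondrocyte markers. Dcn and Lum are also fibroblast markers here, Itga8 a smooth muscle marker and Col2a1 a chondrocyte marker. For the counts by pair that follow, 46.9% of all entries were below 0 in pair 193, 55.1% in 194, 39.7% in 197 and 56.9% in 199. In pair 197, where Fn1, Col5a1 and the RefSeq probe of Col18a1 were lowest, white adipocyte markers were above 0 in 7 of 7 (median 1.82, range 0.081 to 2.86), brown adipocyte markers in 5 of 5 (median 3.23) and smooth muscle markers below 0 in 7 of 9 (median -0.90). In pair 199, adipocyte medians were also high, at 2.23 for white and 2.43 for brown, with 6 of 7 and 4 of 5 above 0, and there Fn1 was at 0.28 and Fmod at 0.56. The smooth muscle median was 0.012 in pair 199, and 0.020 in pair 194, where Fn1 was at 0.49. In pair 220, white and brown adipocyte medians were -0.011 and 0.094, the smooth muscle median -0.0026 and the fibroblast median 0.14, while Fn1 was at -0.72 and Col1a2 at -0.62. Single smooth muscle markers there ranged from -1.68 to 0.37.

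In pair 193, where Col1a2 was lowest, smooth muscle markers were below 0 in 7 of 9 (median -0.75) and fibroblast markers in 7 of 9 (median -0.17). In pair 194, where Plod2 and Col3a1 were lowest, Schwann cell markers were above 0 in 5 of 5 (median 1.15) and fibroblast markers below 0 in 6 of 9 (median -0.29). Markers of fibroblasts, which make much of the fibrillar collagen, were above 0 in 8 of 9 in pairs 197 and 199, with medians of 0.26 and 0.25. The exceptions were Serpinf1 at -1.14 in pair 197 and Thy1 at -0.062 in pair 199. Endothelial medians lay between -0.13 and 0.43 over the pairs, leukocyte medians between -0.21 and 0.11, and those of 3 skeletal muscle and 2 chondrocyte markers between -0.27 and 0.16. Single markers lay farther from 0 than these medians. The skeletal muscle marker Ckm was at -2.30 and -2.12 in pair 197, where 2 of 3 such markers were above 0. The leukocyte marker Lyz2 ranged from -1.50 in pair 199 to 1.18 in pair 193. The part of these markers in the values of the members was not tested.

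**Figure D5:**
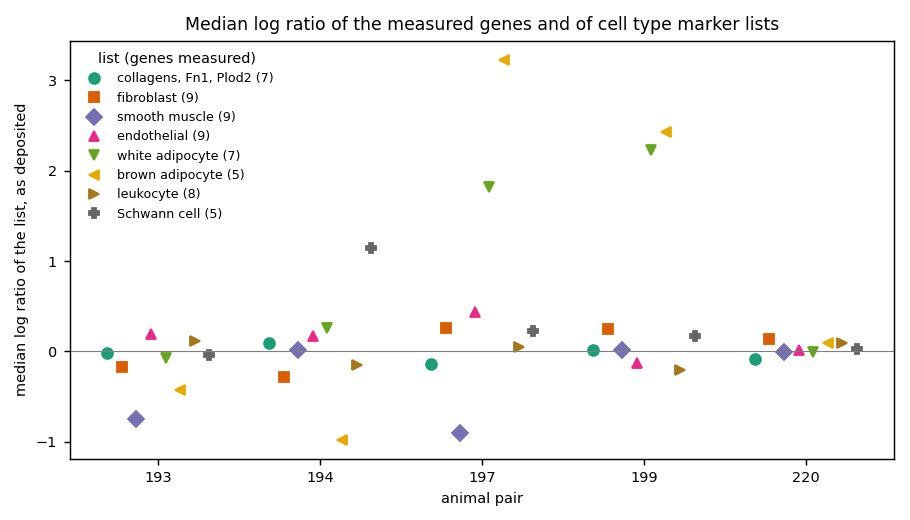
Median log ratio as deposited (vertical axis) of the 7 measured genes and of 7 marker lists in each animal pair (horizontal axis), with the number of genes measured in the key. Adipocyte medians reach 1.82 to 3.23 in pairs 197 and 199, and smooth muscle medians -0.75 and -0.90 in pairs 193 and 197, while the medians of the measured genes stay between -0.14 and 0.097.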

How the data were processed

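Agilent 2-colour arrays were made from Trizol RNA of thoracic aorta, per the labels' protocols. The authors deposited 1 log ratio per feature and array, with a mean of 0 on every array. The base is not stated and the deposited values were taken as log2. The sources used here do not say how spots were read and normalized. Dim and control spots could not be removed. Precision is limited by the number of animal pairs. Probes of the platform annotation were placed on the value rows by reading the probes down grid columns of 215 and the value rows along the grid from its opposite corner. A single gene symbol was given for 12750 features, several for 5 and none for 9820. Probes of a gene were averaged, then the 2 arrays of a pair, which the labels tie to the same animals. limma 3.58.1 (R 4.3.3) tested the 5 pair values against 0 across all 19478 entries (lmFit, eBayes, Benjamini-Hochberg), and the 4 dye parts likewise. The procedure was tested on simulated data. The nearest genes were ranked by root mean square difference over 9 arrays. All measured members were named, and from every other list the 3 genes with the smallest p and the 2 with the largest mean in size. Members and lists were chosen with earlier results of these data known. Alternatives changed centring, scale, probes, sign, arrays, pairs, features and moderation.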

Additional observations from a re-analysis of the deposited data

Results flagged for a closer look

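Of 29 groups of 4 or 5 values checked, 4 held a value far from the others by Dixon's criterion, which chance alone flags in about 5% of groups. Col5a2 was at 0.456 in pair 197, with the other pairs close to 0. The RefSeq probe of Col18a1 was at -2.34 in pair 197, low on both arrays. The cDNA probe of Col18a1 was at -0.973 in pair 199, a value that 1 of its 2 arrays carried. A probe of Plod2 was at -0.427 in pair 194, which has 1 array.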

How the results depend on the processing

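Over 16 other settings, 108 of 112 member means kept their sign, and no member passed an adjusted p of 0.05 in limma, with adjusted p from 0.347 to 1. If the Cy5 arrays were turned, Col5a1 was at 0.024, Fn1 at 0.102 and the median of the members' means at -0.0423, against -0.143 as reported. Without pairs 197 and 199, Col5a1 was at 0.0785, and 1 member, Plod2, had the same sign in all remaining pairs, as did 21.7% of all entries. Leaving out 1 pair, that count ranged from 0 to 1 (1 without pair 197, where 12.3% of all entries did), and the mean of Col5a1 from -0.208 to 0.107. Leaving out 1 swapped pair, dye parts ranged from -0.0342 to 0.0223 for Col3a1, -0.0809 to 0.217 for Col5a2, -0.128 to 0.0461 for Col18a1 and -0.0136 to 0.0331 for Fn1. The number of entries past an adjusted p of 0.05 was 0 in every setting, except 1 without moderation of the variances. With all arrays singly and the animal pair as a replicate block, the median of the members was -0.123 and no call changed. The correlation used there for the 2 arrays of a pair was only 0.080, so that setting counted them almost as separate replicates. The causes were not tested. Signal over background is unknown, so the part of dim probes could not be assessed.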

Other observations

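The genes nearest to fibronectin over the 9 arrays were looked for after its values were seen, and no test was made. They were Klf9, a transcription factor induced by glucocorticoids, Nudt4, Mthfd2, an enzyme of mitochondrial folate metabolism, the splicing regulator Ptbp1 and Furin, a protease of the secretory pathway, at root mean square differences of 0.212 to 0.255. Klf9 was at -0.26, 0.81, -1.47, 0.13 and -0.79 in pairs 193, 194, 197, 199 and 220, where Fn1 was at -0.46, 0.49, -1.29, 0.28 and -0.72.

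The genes nearest to the RefSeq probe of Col18a1 were Coro1c, Gfra1, Sfxn3, Fmod and Adamts2, at 0.235 to 0.335 of 9646 genes compared. In pair 197 they lay between -2.48 and -1.85. Fmod and Adamts2, numbers 4 and 5, belong to the lists of fibril-binding and collagen-processing genes above. The ranking was likewise made after the values were seen and carries no test.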
